A study of Homo sapiens with 8 samples.

Results

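The Hippo pathway genes studied here are the coactivators YAP1 and WWTR1 (which encodes TAZ), their DNA-binding partners TEAD1, TEAD2, TEAD3 and TEAD4, the kinases LATS1 and LATS2, and the angiomotins AMOT and AMOTL2. They were taken by gene symbol, and all 10 were found among the 19472 genes of the crowding experiment and the 19551 genes of the ETV4 knockdown experiment, of which 18679 are in both. All 10 passed the filter on low counts in both experiments.

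Poly-A RNA of H9, an established line of human embryonic stem cells (hESCs), was sequenced in 8 libraries, 2 per group. In the crowding experiment, cells labelled small (low density) were compared with cells labelled crowded (high density), which attached only to small drops of Matrigel, a basement membrane extract, and were left to fill that area for several days. In the knockdown (KD) experiment, cells carrying a control short hairpin RNA (shControl) were compared with cells carrying a hairpin against ETV4 (shETV4), a transcription factor of the ETS family. No other allele or agent is named for either experiment. The sources do not state which ETV4 hairpin each shETV4 library carries, or at what density the KD cultures were harvested. The study states in general terms that its experiments were repeated independently, but no source says so of these libraries or names their cultures. P-values therefore measure the spread between these libraries, which may be technical.

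In the Hippo pathway, MST and MAP4K kinases activate LATS1 and LATS2, and these phosphorylate YAP and TAZ so that they stay in the cytoplasm or are degraded. Unphosphorylated YAP and TAZ enter the nucleus, bind TEAD proteins and raise the transcription of genes such as CCN1 and CCN2. Angiomotins hold YAP at cell junctions and at the actin cytoskeleton, and cell density, cell shape and actomyosin tension are known inputs. AMOTL2 and LATS2 are known as feedback targets, inhibitors whose own genes are raised by YAP and TEAD. RNA levels do not measure phosphorylation or the location of YAP and TAZ.

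Depth was similar in all libraries, with 50359703 to 62410168 counts on genes. ETV4 was at 90.8 and 95.1 FPKM (fragments per kilobase of transcript, scaled to the mapped fragments of the library) with shControl and at 45.6 and 40.9 FPKM with shETV4, and it fell by 1.15 on the log2 scale (SE 0.07, adjusted p = 1.61e-04). After crowding it went from 73.2 and 72.6 to 54.2 and 53.9 FPKM, a log2 fold change of -0.49 (adjusted p = 9.42e-07). All 8 hESC markers were present in every library, with summed levels of 3141 to 3356 FPKM in the crowding experiment and 2563 to 2782 FPKM in the KD experiment. The largest part of these sums was POU5F1, and single markers changed within them. After crowding 6 of the 8 had an adjusted p below 0.05, but 0 of the 8 had a log2 fold change over 0.5 in size as well, and NANOG was at -0.46 and SOX2 at 0.41 on the log2 scale. After ETV4 KD, DNMT3B (-0.82) and TDGF1 (-0.82) were lower and LIN28A (0.51) higher past both thresholds, and NANOG was at -0.44.

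Promoter windows of the reference (RefSeq, build GRCh38.p14, 250 bases before to 50 after a start) were read for the letters GGAATG on either strand, the core of the TEAD recognition motif. Windows were read for 8 of the 10 genes (all but TEAD1 and TEAD4) and for 13 of the 19 genes in a list of YAP/TAZ targets. These letters were in 3 of the 12 windows of the 10 genes, those of YAP1, LATS2 and AMOTL2, against 14% of 35116 promoter windows. They were in 7 of the 14 windows of the target list. AMOTL2 has an entry for each of its annotated starts, and 1 of them holds a match, 69 bases before the start. The YAP1 match lies 162 bases before its start, the LATS2 match 10 bases after it, and CCN2 holds 3 matches, at 169, 104 and 95 bases before its start. The 250 bases before the start are shown for AMOTL2, CCN2 and YAP1. Of these, AMOTL2 and CCN2 were picked with their fall at high density known, and YAP1 encodes the coactivator itself. The other target windows with a match are not shown, and whether the letters go with a fall in RNA was not tested. Capitals mark GGAATG or its reverse complement CATTCC, and a match is a description of the letters, not a measured binding site.
AMOTL2 chr3:134374448-134374697, minus strand: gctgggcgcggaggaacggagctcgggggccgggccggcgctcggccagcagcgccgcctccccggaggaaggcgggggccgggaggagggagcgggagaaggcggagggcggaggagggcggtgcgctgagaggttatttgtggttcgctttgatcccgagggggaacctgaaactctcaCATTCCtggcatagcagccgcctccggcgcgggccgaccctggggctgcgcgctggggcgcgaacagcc
CCN2 chr6:131951373-131951622, minus strand: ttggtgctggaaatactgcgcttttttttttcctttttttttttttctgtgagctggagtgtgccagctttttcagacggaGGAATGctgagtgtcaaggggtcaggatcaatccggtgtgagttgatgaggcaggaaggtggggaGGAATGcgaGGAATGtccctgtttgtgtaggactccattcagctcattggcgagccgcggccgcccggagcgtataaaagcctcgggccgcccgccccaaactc
YAP1 chr11:102110197-102110446, plus strand: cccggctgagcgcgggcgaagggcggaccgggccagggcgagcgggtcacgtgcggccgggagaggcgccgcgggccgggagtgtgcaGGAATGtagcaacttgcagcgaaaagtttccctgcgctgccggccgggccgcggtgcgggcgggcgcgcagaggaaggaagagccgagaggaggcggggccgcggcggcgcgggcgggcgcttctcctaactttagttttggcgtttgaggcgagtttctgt
The ETS motif CCGGAAG, which does not contain GGAATG and was also searched on both strands, was in 0 of the 12 windows of the 10 genes and 0 of the 14 of the targets, against 10.3% of all windows. The letters in the window do not show whether a factor binds.

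TEAD2 had the highest level of the 10 genes and AMOT the lowest in every group, and YAP1 was above WWTR1 throughout. Mean levels at low density ran from TEAD2 at 63.0 ± 2.99 FPKM (SD, n = 2), through TEAD4 at 42.2 ± 0.43, YAP1 at 31.9 ± 0.05, AMOTL2 at 16.2 ± 0.14, TEAD3 at 12.3 ± 0.14 and TEAD1 at 9.98 ± 0.73, to LATS2 at 5.15 ± 0.06, LATS1 at 4.87 ± 0.13, WWTR1 at 4.70 ± 0.52 and AMOT at 1.87 ± 0.05 FPKM. In this order only LATS1 and WWTR1 had overlapping libraries as neighbours. At high density YAP1 stood above TEAD4 and TEAD3 above AMOTL2, and the overlapping neighbours were AMOTL2 with TEAD1 and LATS1 with LATS2. With shControl, TEAD4 and YAP1 overlapped as neighbours. With shETV4, the neighbours TEAD4 with YAP1, AMOTL2 with TEAD3, TEAD1 with WWTR1 and LATS1 with LATS2 overlapped. The tables were normalized separately, so levels are set side by side between the experiments without a test.

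**Figure D1:**
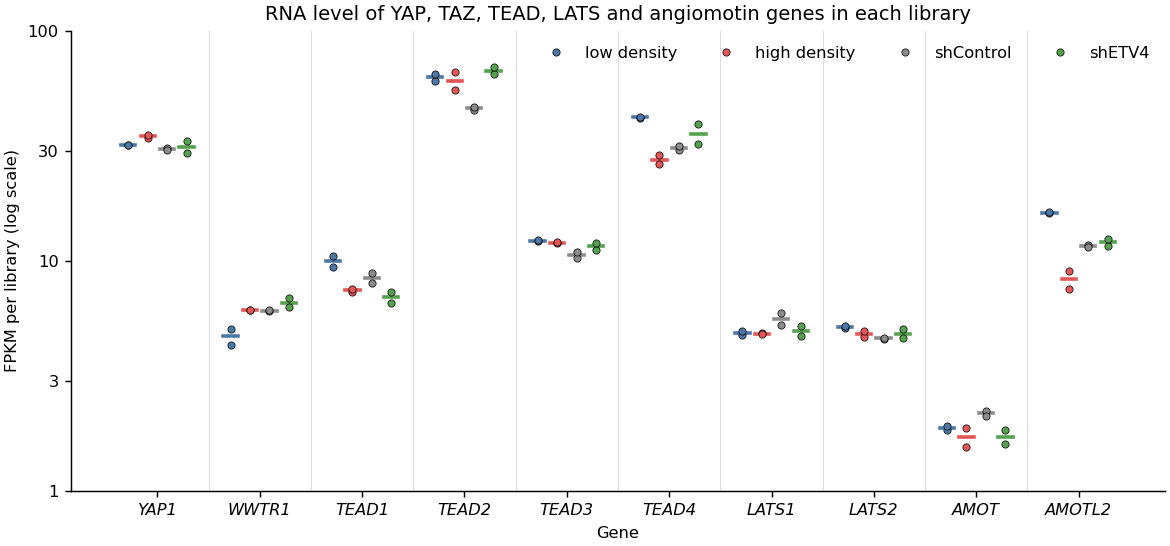
RNA level (FPKM, log axis) of the 10 genes in each of the 8 libraries; points are libraries, horizontal lines group means (2 libraries each). TEAD2, TEAD4 and YAP1 lie at the top and AMOT at the bottom in every group, and the high-density libraries of TEAD4 (28.8 and 26.4 FPKM) and AMOTL2 (9.05 and 7.57 FPKM) lie below both low-density libraries.

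Crowding was followed by lower RNA of AMOTL2 and TEAD4, while YAP1 and both LATS kinases did not pass the test. A gene was called when its p, adjusted by Benjamini-Hochberg across the 17672 genes tested in the quasi-likelihood test of edgeR, was below 0.05 and its log2 fold change exceeded 0.5 in size. By this rule 2 of the 10 genes were called, both lower, against 16.1% of all genes in either direction and 5.47% called lower, and the count in either direction is near that background. At any fold, 4 of the 10 passed the adjusted p, against 39.7% of all genes. The FPKM of the groups did not overlap for 7 of the 10, against 70.2% of all genes, a share near the background. The median log2 fold change of the 10 genes was -0.13, and that of all genes tested was 0.00. In bulk RNA, fewer cells that express a gene and less RNA per cell cannot be told apart.

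Of the coactivators, YAP1 (chromosome 11, 101981178 to 102104155 of GRCh37, plus strand) was at 31.9 and 31.9 FPKM at low density and 34.4 and 35.4 FPKM at high density. The high-density libraries lay slightly above, but the log2 fold change of 0.08 (SE 0.06) had an adjusted p of 0.290. WWTR1 (chromosome 3, 149235022 to 149454501, minus strand) was at 4.33 and 5.06 FPKM at low density and at 6.13 in both high-density libraries. Its log2 fold change of 0.32 (SE 0.08) had an adjusted p of 2.61e-03 and stayed under the fold threshold. Without low-density replicate 1 it was 0.22, with an adjusted p of 0.118. The ratio of YAP1 to WWTR1 FPKM was 7.37 and 6.29 at low density and 5.61 and 5.78 at high density, so YAP1 RNA exceeded TAZ RNA in every library.

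Of the TEAD genes only TEAD4 was called, and differences between the TEAD genes were not tested. TEAD4 (chromosome 12, 3068496 to 3149842, plus strand), the TEAD best known from the trophectoderm, went from 41.9 and 42.5 to 28.8 and 26.4 FPKM. Its libraries did not overlap, and the log2 fold change was -0.67 (SE 0.06, adjusted p = 4.10e-08). TEAD1 (chromosome 11, 12695968 to 12966284, plus strand) went from 9.46 and 10.5 to 7.32 and 7.58 FPKM, also without overlap, and its log2 fold change of -0.48 (SE 0.06, adjusted p = 2.74e-06) fell just short of the fold threshold. Without low-density replicate 1 it was -0.55 and was called. TEAD2 (chromosome 19, 49843852 to 49865714, minus strand) was at 60.9 and 65.1 FPKM at low density and 66.5 and 55.4 FPKM at high density, with the widest spread of the family at high density and overlapping groups. Its log2 fold change was -0.10 (SE 0.07, adjusted p = 0.299), and without high-density replicate 2 it was 0.03, while without high-density replicate 1 it was -0.24 with an adjusted p of 2.30e-04. TEAD3 (chromosome 6, 35441374 to 35464856, minus strand) was at 12.2 and 12.4 against 11.9 and 12.1 FPKM, a log2 fold change of -0.09 (SE 0.07, adjusted p = 0.303).

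The make-up of TEAD RNA differed accordingly between the densities. Summed over the family, TEAD RNA was at 124 and 130 FPKM at low density and at 115 and 101 FPKM at high density. TEAD4 made up 33.7% and 32.6% of it at low density and 25.2% and 26.0% at high density, and TEAD2 made up 48.9% and 49.9% against 58.0% and 54.6%. The ratio of TEAD2 to TEAD4 was 1.45 and 1.53 at low density and 2.31 and 2.1 at high density. Summed TEAD RNA stood at 3.43 and 3.53 times the summed YAP1 and WWTR1 RNA at low density and at 2.83 and 2.44 times at high density. With 2 libraries per group an exact two-sided permutation test of a single share or ratio cannot give a p below 0.333. The shares and ratios are therefore given without a test.

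**Figure D2:**
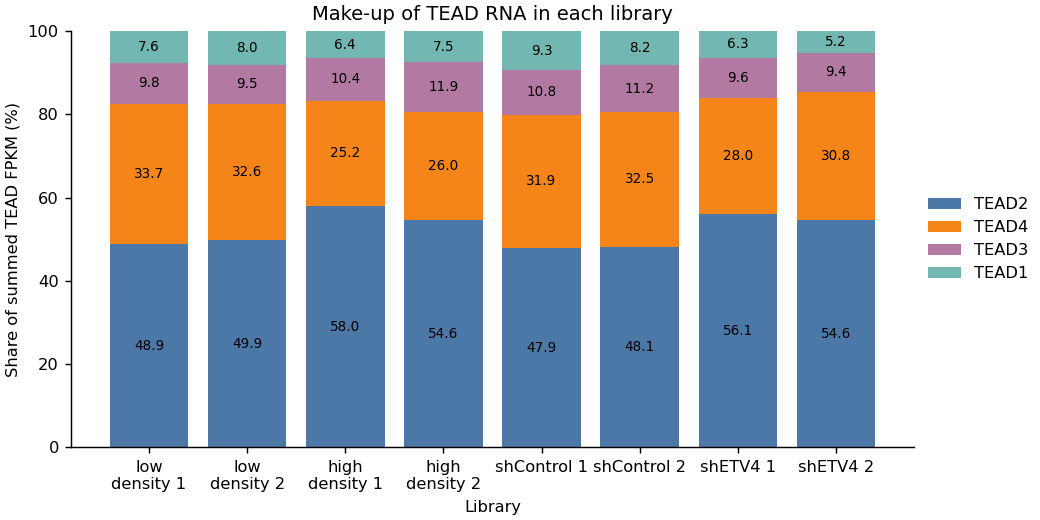
Share (%) of each TEAD gene in the summed TEAD FPKM of each of the 8 libraries (stacked bars, no error bars). The TEAD4 share is 33.7% and 32.6% at low density and 25.2% and 26.0% at high density, and the TEAD2 share is above 54% in the high-density and shETV4 libraries and below 50% in the others.

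Neither LATS kinase passed the test between the densities. LATS1 (chromosome 6, 149979289 to 150039241, minus strand) was at 4.78 and 4.96 FPKM at low density and 4.85 and 4.80 FPKM at high density, with overlapping groups and a log2 fold change of -0.04 (SE 0.07, adjusted p = 0.701). LATS2 (chromosome 13, 21547175 to 21635725, minus strand) was at 5.10 and 5.19 against 4.66 and 4.94 FPKM. Its groups did not overlap, but the log2 fold change of -0.16 (SE 0.07) had an adjusted p of 0.0886, and without high-density replicate 2 it was -0.19 with 0.0489.

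Of the angiomotins, AMOTL2 was called and AMOT was not, and the difference between them was not tested. AMOTL2 (chromosome 3, 134074189 to 134094321, minus strand), whose window with the GGAATG letters is shown above, went from 16.1 and 16.3 FPKM at low density to 9.05 and 7.57 FPKM at high density. The groups did not overlap, and the log2 fold change of -1.02 (SE 0.07, adjusted p = 1.15e-08) was the largest of the 10 genes in either experiment. AMOT (chromosome X, 112017731 to 112084059, minus strand) was at 1.84 and 1.90 against 1.55 and 1.88 FPKM, with overlapping groups and a log2 fold change of -0.18 (SE 0.10, adjusted p = 0.174). Without high-density replicate 1 the AMOT value was -0.055, and without replicate 2 it was -0.32 with an adjusted p of 0.0149. Of the known feedback targets, AMOTL2 was thus called and LATS2, at -0.16, was not, and the difference between these genes was not tested.

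**Figure D3:**
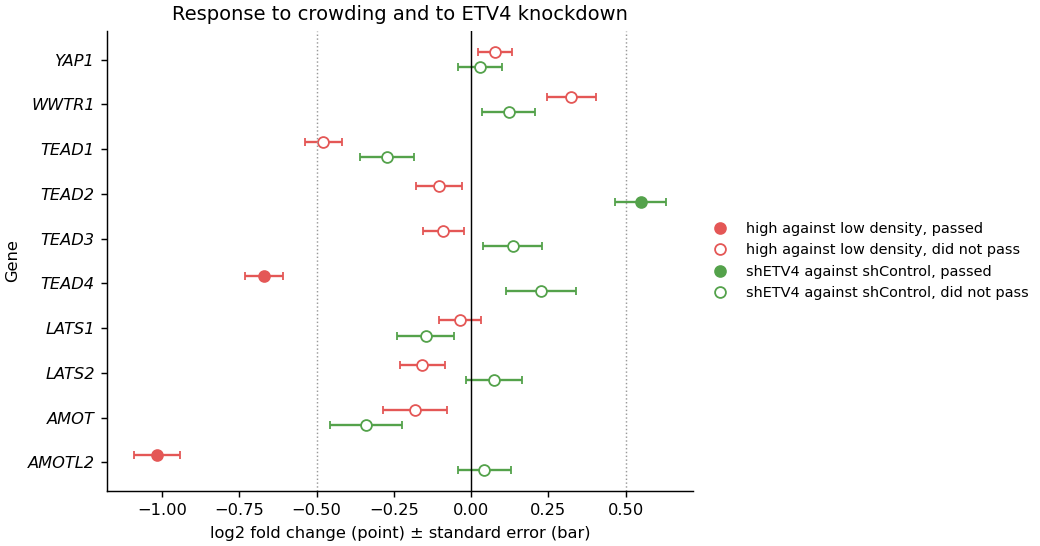
Log2 fold change (points) with its standard error (bars) of the 10 genes for high against low density and for shETV4 against shControl, 2 libraries per group; filled points passed the adjusted p of 0.05 and the log2 fold change of 0.5 (dotted lines). AMOTL2 (-1.02) and TEAD4 (-0.67) are filled for crowding and TEAD2 (0.55) for ETV4 KD.

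After ETV4 KD the one gene called was TEAD2, which rose. By the same rule over the 17879 genes tested, 1 of the 10 was called, against 13.0% of all genes in either direction and 5.88% called higher, again near the background. At any fold that gene alone passed the adjusted p, against 21.5% of all genes. The FPKM of the groups did not overlap for 8 of the 10, against 63.3% of all genes. The median log2 fold change was 0.06, with 0.00 for all genes tested.

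TEAD2 was at 45.6 and 47.0 FPKM with shControl and at 65.0 and 69.7 FPKM with shETV4. Both shETV4 libraries lay above both shControl libraries, and the log2 fold change was 0.55 (SE 0.08, adjusted p = 0.00406). Without shETV4 replicate 2 it was 0.46, under the fold threshold, with an adjusted p of 0.00203. The span of TEAD2 overlaps CD37 and DKKL1 on the opposite strand, and the sources do not say if strand was used in counting. DKKL1 lay between 0.84 and 2.1 FPKM in these libraries and its log2 fold change was -1.06. No value was read for CD37, and reads shared with TEAD2 would enter the DKKL1 value too. The part of the overlap in the TEAD2 result was not tested.

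The other TEAD genes were not called. TEAD4 was at 30.4 and 31.8 FPKM with shControl and 32.4 and 39.4 FPKM with shETV4, a log2 fold change of 0.23 (SE 0.11, adjusted p = 0.187). TEAD1 was at 8.86 and 8.0 against 7.34 and 6.58 FPKM, a log2 fold change of -0.27 (SE 0.09, adjusted p = 0.0584), and TEAD3 had a log2 fold change of 0.13 (SE 0.09, adjusted p = 0.339). Without shETV4 replicate 1, TEAD4 was at 0.38 (adjusted p = 0.00473) and TEAD1 at -0.32 (adjusted p = 0.0204), both still under the fold threshold. Summed TEAD RNA was at 95.0 and 97.7 FPKM with shControl and 116 and 128 FPKM with shETV4, and the TEAD2 share was 47.9% and 48.1% against 56.1% and 54.6%. The TEAD2 share was thus higher than in the control libraries in both experiments. At high density the TEAD2 level overlapped that at low density while TEAD4 fell, and after ETV4 KD the TEAD2 level rose.

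YAP1 was at 30.9 and 30.4 FPKM with shControl and 33.2 and 29.6 FPKM with shETV4. Its groups overlapped, and the log2 fold change was 0.03 (SE 0.07, adjusted p = 0.810). WWTR1 was at 6.03 and 6.13 against 6.87 and 6.28 FPKM, a log2 fold change of 0.12 (SE 0.09, adjusted p = 0.340). LATS1 was at 5.94 and 5.25 against 5.20 and 4.70 FPKM (log2 fold change -0.15, SE 0.09, adjusted p = 0.280). LATS2 was at 4.60 and 4.61 against 5.05 and 4.61 FPKM (log2 fold change 0.07, SE 0.09, adjusted p = 0.591). AMOTL2, the gene with the largest change after crowding, was at 11.7 and 11.5 FPKM with shControl and 11.7 and 12.4 FPKM with shETV4, with overlapping groups and a log2 fold change of 0.04 (SE 0.09, adjusted p = 0.755). AMOT was at 2.23 and 2.12 against 1.84 and 1.59 FPKM, and its log2 fold change of -0.34 (SE 0.12) had an adjusted p of 0.0698, or 0.0284 without shETV4 replicate 1 (-0.41).

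Because ETV4 RNA was lower in both the high-density and the shETV4 libraries, the responses of each gene were compared in 1 fit on the raw counts of all 8 libraries, as the crowding log2 fold change minus the KD log2 fold change. The experiments share no control libraries. Of the 10 genes, 3 had different responses (adjusted p below 0.05 and a difference over 0.5), all lower in crowding, against 27.5% of the 17790 genes tested and 12.5% lower in crowding, so that the count in either direction is near the background. The difference was -1.06 (SE 0.13, adjusted p = 7.95e-05) for AMOTL2, -0.90 (SE 0.14, adjusted p = 3.65e-04) for TEAD4 and -0.66 (SE 0.12, adjusted p = 0.00149) for TEAD2. For YAP1 it was 0.04 (SE 0.08, adjusted p = 0.725), and for LATS1 0.10 (SE 0.11, adjusted p = 0.465). TEAD1, with negative log2 fold changes in both experiments, had a difference of -0.21 (SE 0.11, adjusted p = 0.148).

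Genes known to be raised by YAP and TAZ through TEAD were read from a list of 19, with AMOTL2 and LATS2 left out. After crowding, 17 of them could be tested, and 7 were called lower and 1 higher, against 5.47% and 10.7% of all genes. Their median log2 fold change was -0.35. CCN1, a matricellular protein, went from 33.2 and 33.8 to 15.0 and 12.9 FPKM, a log2 fold change of -1.32 (SE 0.07, adjusted p = 3.09e-11). CCN2, of the same family and with the 3 promoter matches shown above, went from 45.1 and 44.7 to 20.0 and 17.9 FPKM, a log2 fold change of -1.30 (SE 0.06, adjusted p = 2.99e-12). In both genes the high-density libraries were less than 50% of the lowest low-density library.

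The other target genes that fell after crowding were FJX1 (log2 fold change -1.01), GADD45A, a stress-induced regulator of the cell cycle (-0.78), PTPN14, a phosphatase that binds YAP (-0.63), CRIM1, a membrane protein that binds BMPs (-0.61), and MYOF, a membrane repair protein, which lay at 1.59 and 1.51 against 0.38 and 0.40 FPKM (-2.03). MYOF had a mean under the 1 FPKM otherwise needed for a named gene in this experiment and is named after its values were seen. The CRIM1 value was -0.47, under the fold threshold, with limma on log2(FPKM + 1). IGFBP3, which binds insulin-like growth factors, rose from 1.78 and 2.28 to 3.56 and 3.18 FPKM (log2 fold change 0.67, SE 0.14, adjusted p = 6.45e-04). Below the fold threshold were the receptor tyrosine kinase AXL (-0.37), the kinase NUAK2 (-0.35) and the ARF regulator ASAP1 (-0.33), with adjusted p-values of 9.06e-05, 6.16e-03 and 3.47e-04. F3, the coagulation factor receptor, and the exchange factors DOCK5 and ARHGEF17 had log2 fold changes of -0.28, -0.17 and -0.11 and adjusted p-values of 0.141, 0.0695 and 0.414.

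After ETV4 KD most targets that were called were higher. Of the 18 that could be tested, 8 were called higher and 1 lower, against 5.88% and 7.10% of all genes, and the median log2 fold change was 0.52. GADD45A went from 8.31 and 8.34 to 17.5 and 22.5 FPKM, a log2 fold change of 1.27 (SE 0.15, adjusted p = 0.00152). AXL went from 6.79 and 6.52 to 14.9 and 14.7 FPKM, a log2 fold change of 1.15 (SE 0.08, adjusted p = 2.34e-04). The others called higher were FJX1 (1.00), F3 (0.75), IGFBP3 (0.72), MYOF (0.69), NUAK2 (0.63) and CCN2 (0.54). CCN2 was at 41.2 and 40.5 FPKM with shControl and 53.8 and 63.9 FPKM with shETV4 (SE 0.10, adjusted p = 0.0108), and CCN1, at 32.0 and 37.1 against 37.5 and 50.9 FPKM, had a log2 fold change of 0.36 (SE 0.15, adjusted p = 0.118).

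Some of these calls turned on 1 library. Without shETV4 replicate 2, CCN2 was at 0.38 and NUAK2 at 0.41, under the fold threshold. Without shControl replicate 2, IGFBP3 had an adjusted p of 0.106, and CCN1 was at 0.59 and called without shETV4 replicate 1 but at 0.094 (adjusted p = 0.523) without shETV4 replicate 2. RBMS3, the one target called lower, was at 0.28 and 0.19 against 0.13 and 0.14 FPKM, is named after its values were seen, and had an adjusted p of 0.389 without shControl replicate 1 and 0.0743 without shETV4 replicate 2. With limma on log2(FPKM + 1), MYOF was at 0.43 and IGFBP3 at 0.48, and with limma on all genes NUAK2 and RBMS3 had adjusted p-values of 0.0567 and 0.168. Not called were ASAP1 (0.36, adjusted p = 0.0275), CRIM1 (0.23, adjusted p = 0.111), PTPN14 (0.18, adjusted p = 0.376), DOCK5 (-0.14, adjusted p = 0.423) and ARHGEF17 (-0.45, adjusted p = 0.0298).

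In the comparison of the responses, 11 of the 17 targets tested differed, all lower in crowding, against 27.5% of all genes and 12.5% lower in crowding. The largest difference was -2.73 (SE 0.16) for MYOF, which had a mean of 0.97 FPKM in the crowding experiment. It was -2.06 (SE 0.19) for GADD45A, -2.01 (SE 0.26) for FJX1, -1.84 (SE 0.13) for CCN2, -1.69 (SE 0.20) for CCN1 and -1.52 (SE 0.09) for AXL. IGFBP3, which rose in both experiments, had a difference of -0.05 (SE 0.21, adjusted p = 0.869). AMOTL2 fell with CCN1 and CCN2 after crowding, but after ETV4 KD, when CCN2 rose, AMOTL2 and LATS2 had log2 fold changes of 0.04 and 0.07.

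**Figure D4:**
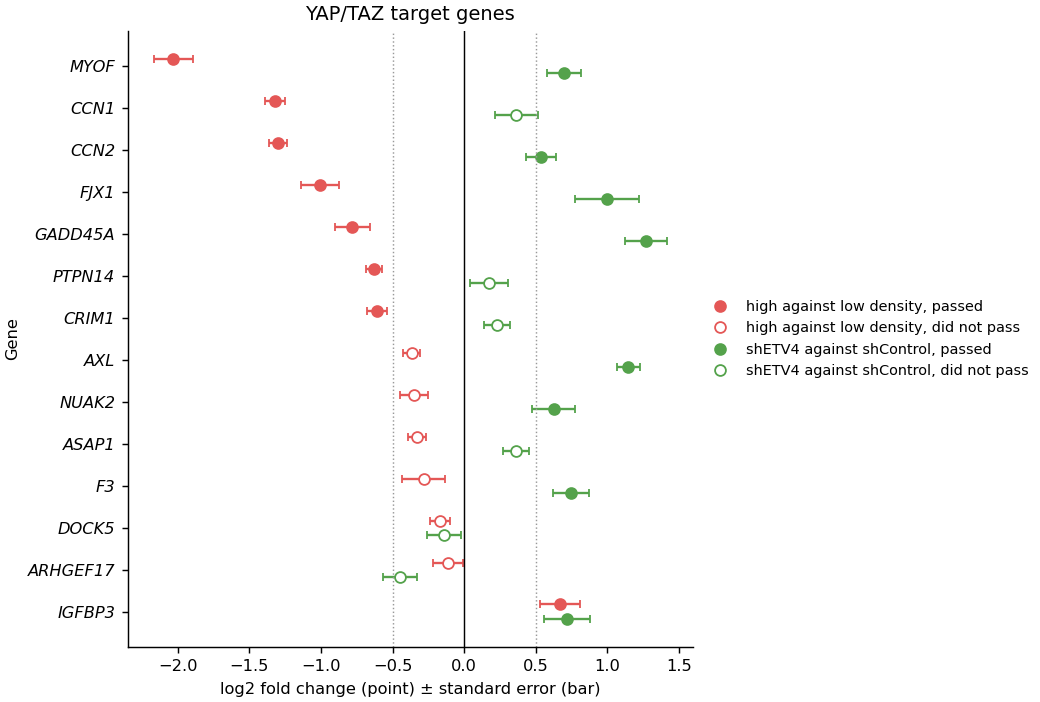
Log2 fold change (points) with its standard error (bars) of the 14 YAP/TAZ target genes with a mean of at least 1 FPKM in either experiment, for high against low density and for shETV4 against shControl (2 libraries per group); filled points passed both thresholds (dotted lines mark the log2 fold change of 0.5). From MYOF to F3 the crowding points lie left of 0 and the KD points right of 0, and IGFBP3 lies right of 0 in both.

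The wider pathway was read from a list of 67 other genes, 64 of which could be tested in each experiment. None of the kinases and adaptors at the core was called after crowding. The MST kinases STK3 and STK4 had log2 fold changes of 0.22 and -0.08 (adjusted p = 0.0916 and 0.294), their adaptor SAV1 -0.15 (adjusted p = 0.0504), the LATS coactivators MOB1A and MOB1B 0.17 and 0.08 (adjusted p = 0.0289 and 0.325), and NF2, the scaffold that brings LATS to the membrane, 0.02 (adjusted p = 0.843). STK4 lay at 0.01 with limma on FPKM, so its direction is not settled.

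Of the 64, 7 were called lower and 2 higher after crowding, against 5.47% and 10.7% of all genes, and the median was -0.05. In either direction that is 14.1% of the list, against 16.1% of all genes. TNIK, a kinase of the MAP4K group, went from 8.37 and 8.10 to 4.38 and 3.63 FPKM (log2 fold change -1.09, SE 0.07, adjusted p = 3.64e-09), while MAP4K1 rose from 1.17 and 1.14 to 1.86 and 2.28 FPKM (0.79, SE 0.17, adjusted p = 7.41e-04). AMOTL1, the remaining angiomotin, went from 9.95 and 9.93 to 5.97 and 5.53 FPKM (-0.85, SE 0.06, adjusted p = 1.03e-09), so that AMOTL1 and AMOTL2 fell while AMOT was not called. The LIM proteins AJUBA and WTIP, which bind LATS and hold it back, had log2 fold changes of -0.79 (SE 0.06, adjusted p = 5.65e-09) and -0.59 (SE 0.09, adjusted p = 1.94e-05). The WTIP call was lost with limma on log2(FPKM + pseudocount), where its value lay between -0.28 and -0.49. WWC3, of the KIBRA family of LATS-activating scaffolds, was at -0.68, the adaptor SFN at -0.86 and the polarity scaffold DLG5 at -0.50, and the apical polarity protein CRB2 rose by 0.99 on the log2 scale. The DLG5 value lay at the fold threshold, with -0.47 without low-density replicate 1, -0.45 without high-density replicate 2 and -0.42 to -0.44 with limma.

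After ETV4 KD, 4 of the 64 were called lower and 3 higher, against 7.10% and 5.88% of all genes, and the median was -0.04. In either direction that is 10.9% of the list, against 13.0% of all genes. The count of 7 was 3 without shControl replicate 1 and 11 without shETV4 replicate 1. STK3 went from 5.67 and 5.97 to 4.11 and 3.54 FPKM (log2 fold change -0.61, SE 0.11, adjusted p = 0.00966), and STK4 was at 0.03. MOB1A (-0.49, adjusted p = 0.0101) and MOB1B (-0.36, adjusted p = 0.0392) stayed under the fold threshold, although MOB1A was called at -0.51 without shControl replicate 2 and at -0.62 without shETV4 replicate 1. SAV1 and NF2 had log2 fold changes of -0.03 and -0.30 (adjusted p = 0.808 and 0.0505).

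AJUBA rose from 8.14 and 8.24 to 14.5 and 19.2 FPKM after ETV4 KD (log2 fold change 1.09, SE 0.14, adjusted p = 0.00247), opposite to its fall after crowding, and the difference of its responses was -1.89 (SE 0.16, adjusted p = 7.65e-06). Of the 64 pathway genes tested in that fit, 14 had different responses, 9 lower and 5 higher in crowding. Over all 17790 genes tested, 27.5% had different responses. The span of AJUBA overlaps another coding gene model on its strand, so its counts are uncertain. VGLL3, a TEAD cofactor that binds where YAP does, rose from 0.95 and 0.85 to 1.69 and 1.91 FPKM (1.00, SE 0.13, adjusted p = 0.00270). The atypical cadherin FAT1 was at 15.6 and 11.6 against 9.97 and 7.04 FPKM (-0.68, SE 0.17, adjusted p = 0.0263), and it was not called without shControl replicate 1 (-0.44) or without shETV4 replicate 2 (adjusted p = 0.231), nor in the Wald test of DESeq2 (adjusted p = 0.0883). The remaining calls were under 1 FPKM and are named after their values were seen: DCHS2 (-1.07) and CRB2 (-0.85) were lower and VGLL2 (1.65) was higher. DCHS2 and CRB2 had adjusted p-values of 0.123 and 0.131 without shControl replicate 1, DCHS2 one of 0.0583 without shETV4 replicate 2, and VGLL2 had 0.0546 and 0.136 without shControl replicate 1 and replicate 2 and 0.0665 in the Wald test of DESeq2. TNIK, AMOTL1 and WWC3, which fell after crowding, had KD log2 fold changes of 0.05, -0.10 and 0.07.

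**Figure D5:**
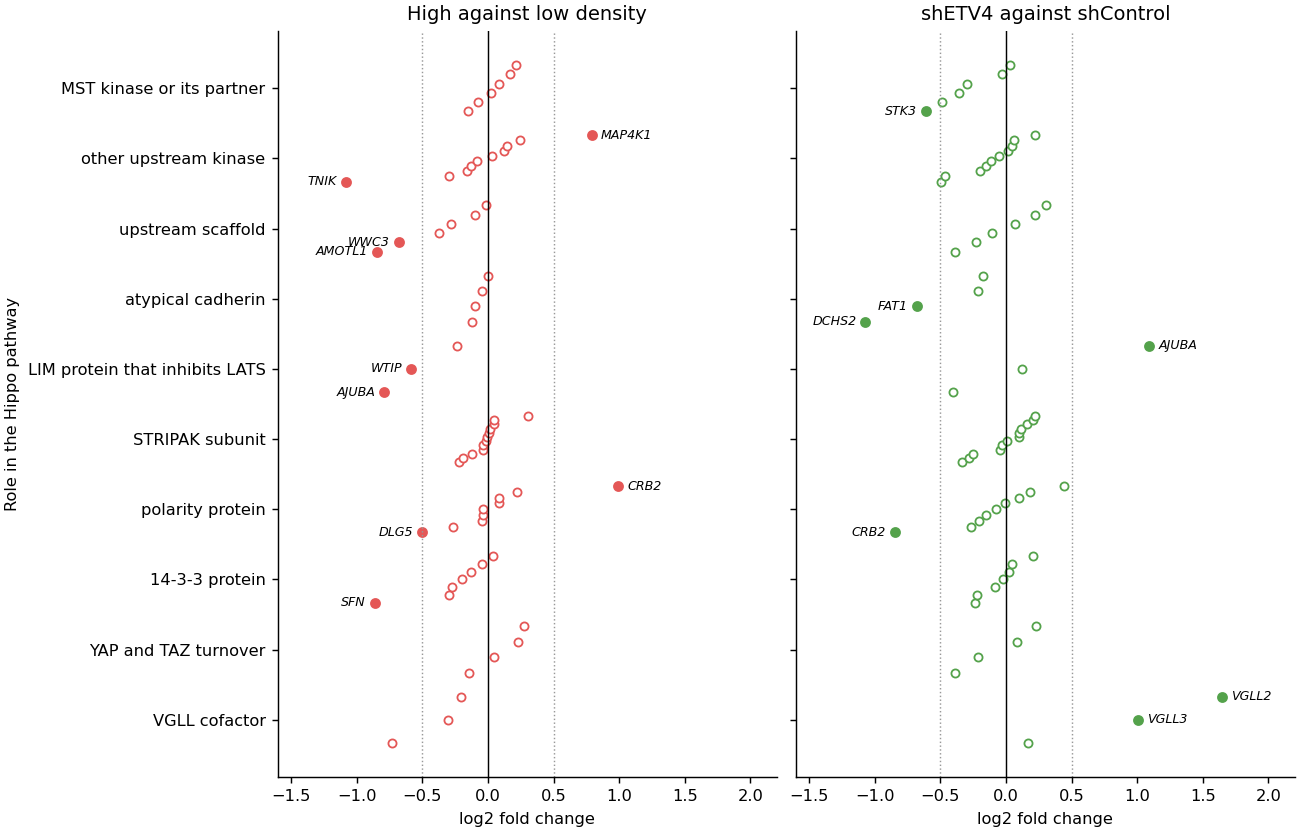
Log2 fold change of the 64 other Hippo pathway genes tested in each experiment, in rows by role; each point is a gene, filled and named where it passed the adjusted p of 0.05 and the log2 fold change of 0.5 (dotted lines). The filled points number 9 for high against low density and 7 for shETV4 against shControl, and AJUBA and CRB2 are filled in both, each on opposite sides of 0.

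Markers of other cell types were read beside these results. In the crowding experiment the summed mesendoderm markers went from 4.43 to 4.76 FPKM at low density to 0.96 to 1.20 FPKM at high density, with 5 of 8 listed and EOMES, SOX17 and MESP1 not listed. This sum follows CER1, which went from 3.24 and 3.82 to 0.44 and 0.19 FPKM, while the other 4 lay below 1 FPKM; of these FOXA2 was also called lower (-2.85), and TBXT was at 0.77 (adjusted p = 0.279). The summed neuroectoderm markers went from 16.9 to 18.2 FPKM to 17.5 to 24.9 FPKM (6 of 7 listed). The largest part of this sum was OTX2 (0.47, adjusted p = 0.0551), and HESX1 was at -0.34 (adjusted p = 0.200). SOX1 was called higher (2.27) and LHX2 lower (-1.55), both below 1 FPKM. The summed fibroblast markers, led by THY1, which hESCs also express, went from 115 to 117 FPKM to 83.6 to 84.3 FPKM (4 of 5 listed), with THY1 called lower (-0.63), COL1A1 at -0.44 and COL1A2 at 0.02. Of the 8 amnion or trophoblast markers 3 were listed, GATA3, TFAP2A, CDX2, HAND1 and CGA were not, and the sums were 2.95 FPKM in both low-density libraries and 3.90 to 4.33 FPKM at high density.

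In the KD experiment the neuroectoderm sum was 4.71 to 6.06 FPKM with shControl and 18.7 to 23.2 FPKM with shETV4. Of its 7 markers 6 were listed and PAX6 was not. This sum followed OTX2, which went from 2.50 and 2.81 to 15.95 and 19.27 FPKM (log2 fold change 2.73). OTX2 was the 1 called of the 4 tested. HESX1 (0.34, adjusted p = 0.413), SIX3 (0.27, adjusted p = 0.705) and LHX2 (-0.09, adjusted p = 0.937) were not called. SOX1 and ZIC1 had too few counts to be tested. The mesendoderm sum went from 2.24 to 3.33 FPKM to 1.34 to 2.04 FPKM (5 of 8 listed), again led by CER1. The fibroblast sum went from 153 to 156 FPKM to 117 to 126 FPKM (5 of 5 listed) and followed THY1, which fell by 0.81 on the log2 scale, whereas COL1A1 rose from 21.5 and 22.4 to 44.9 and 42.8 FPKM (log2 fold change 1.00, SE 0.07, adjusted p = 2.05e-04) and COL1A2 was at -0.50, under the fold threshold. The amnion or trophoblast sum went from 6.77 to 6.99 FPKM to 3.64 to 4.26 FPKM (4 of 8 listed, TFAP2A, HAND1, ISL1 and CGA not), with GABRP the one called (-1.33). The part of these cell-type differences in the results for TEAD2, TEAD4, AMOTL2 and the targets was not tested.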

How the data were processed

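RNA of H9 hESCs was measured in 8 libraries, 2 per group, grouped by their sample titles. The authors prepared stranded poly-A libraries, used Trimmomatic on the paired reads, aligned to GRCh37 with HISAT2 2.1.0 and assembled known transcripts with StringTie 2.1.3b. They deposited a table per experiment with unnormalized read counts of each gene and its FPKM, scaled by transcript length and mapped fragments. Every gene in a table has a read in each of its libraries, so genes without reads in a library cannot be seen. Counting by strand is not stated, so counts are uncertain for named genes whose spans overlap another coding gene (AJUBA, CRB2, CRIM1, ETV4, MAP4K1, MOB1B, RBMS3, SAV1, STK3 and TEAD2). The tables also hold 16 further columns of per-sample values and the authors' fold changes and p-values, which were not used.

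Counts were tested with edgeR 4.0.16 in R 4.3.3 (filterByExpr, TMM, robust quasi-likelihood test, Benjamini-Hochberg over all genes tested), each experiment alone, and both in 1 fit for the difference of responses. SE is the absolute log2 fold change over the square root of F. FPKM is printed per library and as mean ± SD. The biological coefficient of variation was 6.83% (crowding) and 9.93% (ETV4 KD), larger than the counting error of the 10 genes (at least 650 counts per library). For genes of few counts, such as VGLL2 with 9 to 39 counts in the KD libraries, counting error was the larger. Alternatives used DESeq2 1.42.0, limma 3.58.1 on log2(FPKM + 0.5), other filters and each library left out. The test was also run on simulated counts, where false calls made up more than the nominal share of calls for ETV4 KD (10.3%) and less for crowding (3.47%). Simulated log2 changes of 0.7 were called for 61% of the changed genes in crowding and 67% in ETV4 KD. For log2 changes of 1 these were 78% and 72%. A gene that was not called may therefore still have changed.

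The 10 genes and the lists of pathway, target and marker genes were chosen with earlier results of these data known, so lists are described by counts and medians beside those of all genes, with no test of a list. Named genes are the 10 genes, list genes called at a mean of at least 1 FPKM, all targets at that mean, the MST kinases with SAV1, MOB1A, MOB1B and NF2, and ETV4. Positions are from GENCODE lifted to GRCh37, and promoter windows are from RefSeq on GRCh38.p14.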

Additional observations from a re-analysis of the deposited data

How the results depend on the processing

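With 2 libraries per group, leaving one out leaves a lone library that is assumed to vary like the other group. At an absolute log2 fold change over 1, crowding called 1 of the 10 genes, 1 pathway gene and 4 targets, and ETV4 KD called 0, 4 and 2; the stricter threshold itself sets these counts. Limma on log2(FPKM + 0.5), with 0.1 or with 1 called 4 pathway genes after ETV4 KD in place of 7. These limma fits held only genes with a mean of at least 0.5 FPKM, so DCHS2, CRB2 and VGLL2 were not in them. Limma on all genes called 3. There FAT1, DCHS2 and CRB2 had adjusted p-values of 0.0827, 0.118 and 0.0704, and VGLL2 was at 0.45, under the fold threshold. Without 1 library, the KD calls ranged from 0 to 1 of the 10 genes, from 3 to 11 pathway genes and from 6 to 10 targets, and the crowding calls from 2 to 3, from 8 to 9 and from 8 to 8. The difference of responses gave 3 of the 10 genes under all its alternatives. Of 560 values of single genes for crowding, 525 kept their direction and side of the threshold, 26 lost and 1 gained a call and 8 changed sign. For ETV4 KD these were 473, 35, 3 and 8 of 519. Each tally holds, for every gene, its main value read at the threshold of 1. That reading is no refit, its sign cannot change, and some of the lost calls in both experiments come from it alone. The sign changes were all near 0. STK4 after crowding was at 0.013 with limma on log2(FPKM + 0.5), on all genes and with a pseudocount of 0.1, and at 0.0126 with a pseudocount of 1. Without 1 library, crowding values that changed sign ranged from -0.24 to 0.029 for TEAD2, from -0.016 to 0.059 for NF2 and from -0.28 to 0.029 for ARHGEF17. KD values that changed sign ranged from -0.015 to 0.073 for YAP1, from -0.033 to 0.12 for AMOTL2, from -0.041 to 0.11 for STK4, from -0.11 to 0.037 for SAV1, from -0.27 to 0.0092 for DOCK5 and from -0.0094 to 0.34 for PTPN14. Counted without length, the TEAD2 share was 40.1% at low and 46.1% at high density, 38.0% with shControl and 47.5% with shETV4, while that of TEAD1 rose to between 21.5% and 30.2%. The replicate numbers mark no shared culture in the labels, and same-numbered libraries deviated together with correlations of -0.04 and 0.09. With the replicate number as a block, the calls were 2, 9 and 8 for crowding and 1, 7 and 9 for ETV4 KD for the 10 genes, pathway and targets, as without it, and over all genes 2874 (2851 without) and 2901 (2321 without).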
